A study of Mus musculus with 6 samples.

Results

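Amino acids enter and leave cells through membrane carriers of the solute carrier (SLC) superfamily, and the transcripts of 7 of its families, SLC1, SLC3, SLC6, SLC7, SLC36, SLC38 and SLC43, were examined in mouse livers after ischemia and reperfusion. The members were every row of the gene count table whose name begins with Slc followed by 1 of these family numbers, the letter a and a digit, with Slc7a11 left out, which gave 42 of 15454 rows. They divide into 5 members of SLC1, 2 of SLC3, 10 of SLC6, 10 of SLC7, 3 of SLC36, 9 of SLC38 and 3 of SLC43. The name rule also takes in Slc7a6os, which lies on the opposite strand beside Slc7a6 and is not a carrier, Slc6a8, which carries creatine, Slc43a3, which carries purines, and some carriers that work on lysosomes and not at the cell surface.

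Livers came from 6 male C57BL/6 mice of 8 to 10 weeks, all of which had undergone warm ischemia of 75% of the liver followed by reperfusion. One group had received vehicle (I/R, n = 3) and the other ginsenoside Rk2, a ginseng saponin (I/R+Rk2, n = 3). Both vehicle and drug were given 2 days ahead of the operation and again as reperfusion began. The comparison asks whether the injured liver expresses these carriers at other levels when the mouse has received Rk2; no sham-operated liver was analysed here, so no value says what ischemia itself did. Libraries were made from the total RNA of whole liver pieces, and in such bulk samples fewer cells of a type and less RNA per cell cannot be told apart.

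In the liver, these carriers set how much glutamine, alanine, arginine and other amino acids hepatocytes draw from portal blood for urea, glucose and protein synthesis, and how much glutamine and glutamate they give back. Most SLC7 carriers of large neutral or cationic amino acids are light chains that reach the surface only when bound to an SLC3 heavy chain, whereas SLC1, SLC6 and SLC38 carriers are coupled to sodium and SLC36 carriers to protons. Several of the genes are induced by the transcription factor ATF4 when amino acids run short or proteins misfold, and some of the carriers report amino acid supply to the growth kinase complex mTORC1.

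Libraries summed to between 16809613 and 35618074 counts, at which depth 3 counts stand for 0.0842 to 0.178 counts per 1000000 (CPM) of the unscaled total. Normalised counts are given as CPM after scaling by the trimmed mean of M values (TMM), with the SD of the 3 livers of a group. On that scale 3 counts stand for 0.0888 CPM in I/R+Rk2 replicate 2 and 0.184 CPM in I/R+Rk2 replicate 3. Such a limit covers counting error only. Log2 fold changes set I/R+Rk2 over I/R and carry their standard error (SE), from edgeR's quasi-likelihood test with Benjamini-Hochberg adjustment over 12411 genes, and a change was called at an adjusted p below 0.05. Levels of different genes are compared in FPKM, the number of fragments scaled to transcript length and to the size of the library.

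Of the 42 members, 31 had enough reads to be tested, and each of the 31 had at least 10 counts in every liver. In I/R+Rk2 livers, 12 were lower and 4 were higher than in I/R livers, so that 16 of 31 changed (51.6%), against 43.9% of all genes tested. By direction, lower calls took 38.7% of the members against 23.7% of all genes, and higher calls 12.9% against 20.3%. Past 2-fold, 7 members were lower, where the share among all genes was 11.4%, and 0 were higher, where it was 3.17%; these 7 were Slc1a5, Slc3a2, Slc7a1, Slc7a5, Slc7a6, Slc7a8 and Slc38a1. The groups did not overlap in 14 members on the lower side (30.3% of all genes) and in 5 on the higher side (27.1% of all genes), where 57.4% of all genes did not overlap in one direction or the other. The median log2 fold change was -0.50 over the 31 members and -0.01 over all genes tested, and that of the members was -0.30 without I/R replicate 1. Of the 4 higher calls, 3 were lost (Slc6a13 was kept) in the FPKM fits and with library size alone, and none with RLE or upper-quartile scaling: with library size alone, which moved the median of all genes to -0.17, 1 member was higher and 12 were lower, so that higher calls made up 7.69% of the called members against 25.0% with TMM.

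**Figure D1:**
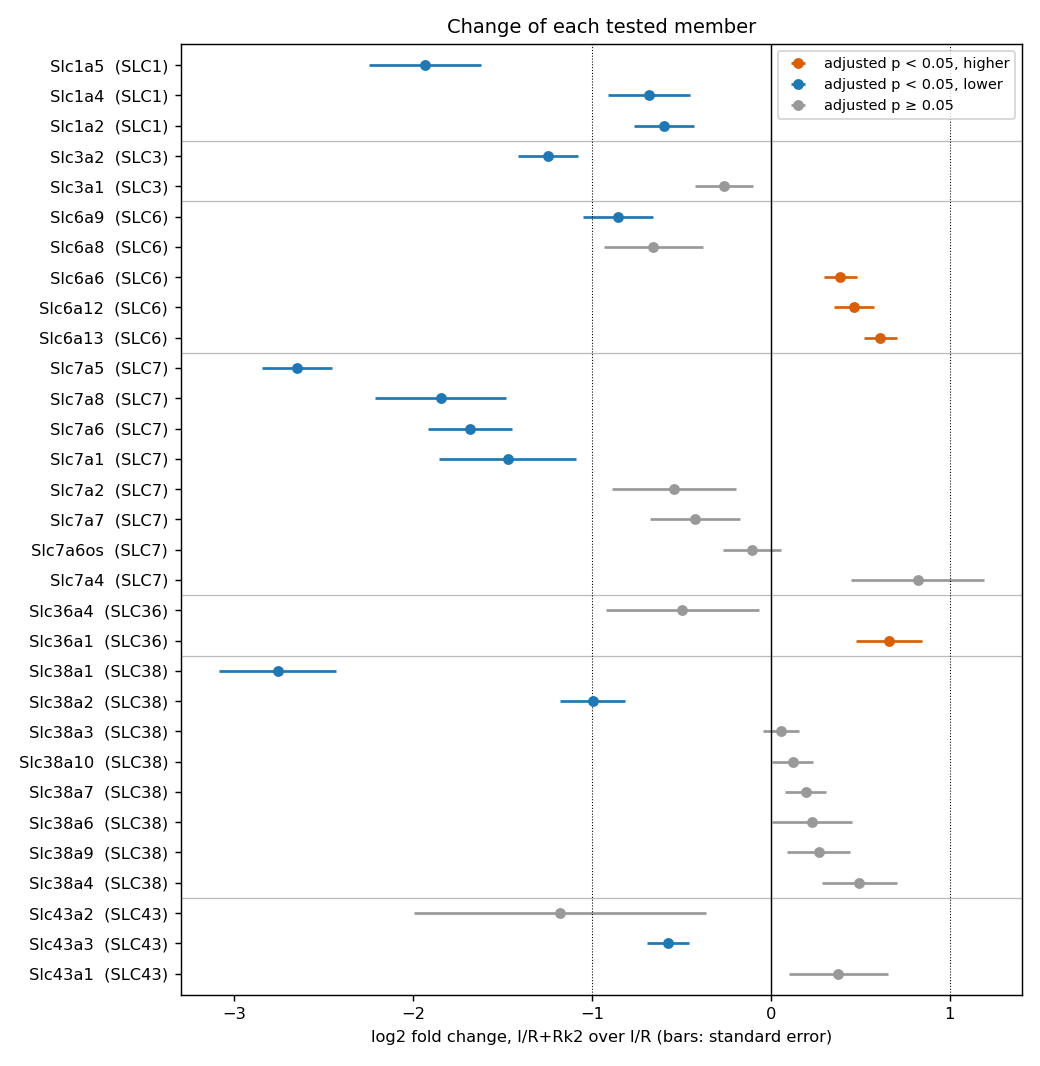
Log2 fold change (I/R+Rk2 over I/R) of each of the 31 tested members, grouped by family, with bars for the standard error and dotted lines at a 2-fold change; blue marks lower calls, orange higher calls and grey no call. The 7 members beyond the left dotted line with a call are Slc1a5, Slc3a2, Slc7a5, Slc7a8, Slc7a6, Slc7a1 and Slc38a1, while Slc43a2 lies beyond it without a call and no called member lies beyond the right one.

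Markers of some other cells moved with the groups in the same libraries, where 23.7% of all genes tested were lower and 20.3% higher. Of 13 tested neutrophil markers, 11 were lower in I/R+Rk2, and their summed level lay between 602 and 729 CPM for I/R livers and between 112 and 258 CPM for I/R+Rk2 livers. All 12 monocyte markers were lower, with a median log2 fold change of -4.10 and summed levels, mostly of Fn1, of 1685 to 1999 CPM against 1133 to 1190 CPM, and Itgam fell from a mean of 33.8 CPM to 2.27 CPM. The 6 tested erythroid markers were all higher, with summed levels of 1302 to 2521 CPM against 3245 to 4197 CPM. Among 11 hepatocyte markers 5 were higher and 1 was lower, and albumin (Alb) stood at a mean of 49227 CPM in I/R against 80119 CPM in I/R+Rk2. Kupffer cell markers gave 3 lower of 12 and stellate cell markers 3 lower of 12, each 25.0% and so near the share of all genes. Yet all 12 Kupffer cell markers had a log2 fold change below 0, with a median of -0.58. Their summed level was 118 to 176 CPM in I/R and 85.5 to 104 CPM in I/R+Rk2, without overlap. The stellate sums overlapped, at 196 to 224 CPM against 157 to 247 CPM. Cholangiocyte markers gave 1 higher and 4 lower of 9 (11.1% and 44.4%). Endothelial markers gave 4 higher and 3 lower of 12 (33.3% and 25.0%). T and NK cell markers summed to between 1.60 and 4.71 CPM over all 6 livers, and B cell markers to between 0.261 and 1.26 CPM. Neutrophil precursor gene Elane was at 0 in every I/R liver, but not in every I/R+Rk2 liver. The part of these cells in the carrier results was not tested.

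Of the 12 falls, 7 were in genes commonly named as dependent on ATF4, a list drawn up with earlier results of these data known. The part of ATF4 in these falls was not tested, and the transcript of Atf4 itself, given below, was not called. Within the 7 families, 8 members are commonly named as ATF4-dependent, Slc1a4, Slc1a5, Slc3a2, Slc6a9, Slc7a1, Slc7a3, Slc7a5 and Slc38a2. Slc7a3 had at most 2 counts and was not tested, and all 7 others were lower, with a median log2 fold change of -1.25, where lower calls took 23.7% of all genes. The count was 6 with RLE scaling, with upper-quartile scaling and without a filter on low counts, where Slc1a4 lost its call, and no less than 5 in any of the 16 alternatives. ATF4 binds with a C/EBP partner to a composite site whose core reads TGATGNAA. This core was searched on both strands of the promoter windows of RefSeq genes on GRCm38.p6, each running from 250 bases before to 50 after the transcription start, and 31 of the 42 members had a window. It stood in 1219 of 27025 genes (4.51%), in 277 of 9574 tested genes with a window (2.89%) and in 2 of the 31 members (6.45%), Slc1a4 and Slc7a7. The core stood in 1 of 8 lower members with a window and in 1 of 14 tested members that were not lower. Of the ATF4-dependent members 5 had a window, and 1 of these 5, Slc1a4, held the core. Slc1a5, Slc7a3 and Slc7a5 had no window and were not searched. Among 23 other amino acid response genes with a window, 7 held the core (30.4%). The Slc1a4 window is shown because it holds the core, in capitals and on the reverse strand, across the start and beginning 4 bases before it. The Slc3a2 and Slc38a2 windows are shown beside it as genes of the same list without the core in these letters. The Slc3a2 window lies inside the gene as placed by GENCODE M21, and the 5′ end given there, at 8723369, was not searched. Each stretch runs 5′ to 3′ from 250 bases before the start to 30 bases after it.
Slc1a4, chr11:20332684-20332963, minus strand: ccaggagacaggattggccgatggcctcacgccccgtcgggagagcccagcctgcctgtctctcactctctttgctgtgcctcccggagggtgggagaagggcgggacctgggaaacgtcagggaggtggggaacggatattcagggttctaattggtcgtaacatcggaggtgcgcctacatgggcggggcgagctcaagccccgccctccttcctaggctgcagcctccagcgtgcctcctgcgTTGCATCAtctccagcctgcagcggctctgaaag
Slc3a2, chr19:8713868-8714147, minus strand: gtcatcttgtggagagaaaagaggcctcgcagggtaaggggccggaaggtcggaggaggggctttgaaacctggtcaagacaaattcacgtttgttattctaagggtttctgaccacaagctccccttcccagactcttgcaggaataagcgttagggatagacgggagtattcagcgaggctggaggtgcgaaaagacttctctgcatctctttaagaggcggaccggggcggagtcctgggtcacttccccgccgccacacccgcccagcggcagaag
Slc38a2, chr15:96699699-96699978, minus strand: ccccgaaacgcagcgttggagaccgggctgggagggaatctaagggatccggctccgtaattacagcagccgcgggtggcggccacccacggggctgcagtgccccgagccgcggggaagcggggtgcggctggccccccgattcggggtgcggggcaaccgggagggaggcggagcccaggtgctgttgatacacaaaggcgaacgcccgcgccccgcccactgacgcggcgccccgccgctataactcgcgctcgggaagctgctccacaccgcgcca
A match is a description of the letters and not a measured site, and the response element known for Slc38a2 lies inside its first intron, outside this window.

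The heavy chains come first because the SLC7 light chains depend on them. Slc3a2 (chromosome 19, 8706882 to 8723369, minus strand, GRCm38) encodes CD98hc, the heavy chain that carries Slc7a5, Slc7a6, Slc7a7 and Slc7a8 to the plasma membrane. Its level was 72.7, 79.1 and 69.6 CPM in I/R replicates 1 to 3 and 39.6, 28.1 and 25.4 CPM in I/R+Rk2 replicates 1 to 3. Every treated liver lay well below every control liver, and the fall was 2.38-fold (log2 fold change -1.25, SE 0.17, adjusted p = 0.00173). On the FPKM scale its mean went from 53.9 ± 13.5 to 16.6 ± 3.94 (SD, n = 3). The other heavy chain, Slc3a1 (rBAT), takes cystine and dibasic amino acids together with Slc7a9 in kidney and gut. Slc3a1 stood at 45.5, 53.5 and 46.2 CPM in I/R and at 50.4, 33.04 and 37.6 CPM in I/R+Rk2. The groups overlapped through I/R+Rk2 replicate 1 (log2 fold change -0.26, SE 0.16, adjusted p = 0.228), while leaving it out gave -0.46 with an adjusted p of 0.0214. Prepl, on the opposite strand, shares 26.5% of the exon bases of Slc3a1, and the strand setting of the counting is not given in the sources used here. Both known light chain partners of Slc3a1, Slc7a9 and Slc7a13, were listed at 0 FPKM in all 6 livers and are not in the count table.

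Among the light chains of CD98hc named above, every one that was called was lower. Slc7a5 (LAT1; chromosome 8, 121881150 to 121907694), the exchanger that brings leucine and other large neutral amino acids into growing or activated cells, fell 6.27-fold. It counted 15.6, 19.2 and 18.8 CPM in I/R and 3.66, 2.52 and 2.33 CPM in I/R+Rk2, so the lowest control was several times the highest treated liver (log2 fold change -2.65, SE 0.20, adjusted p = 0.000279). Slc7a8 (LAT2), its close relative with a wider choice of neutral substrates, was at 4.54, 2.58 and 5.701 CPM against 1.597, 0.918 and 1.04 CPM (log2 fold change -1.85, SE 0.37, adjusted p = 0.00687). The controls spread widely but stayed above all treated livers. Slc7a6 (y+LAT2), which exchanges cationic for neutral amino acids, had 2.97, 3.32 and 3.55 CPM in I/R and 1.22, 1.01 and 0.798 CPM in I/R+Rk2. Its fall was 3.22-fold (log2 fold change -1.68, SE 0.23, adjusted p = 0.00189) with tight groups. Slc7a7 (y+LAT1), the paralog with the same kind of exchange, overlapped between groups at 3.49, 3.86 and 4.58 CPM against 3.99, 2.49 and 2.39 CPM. Its log2 fold change of -0.43 (SE 0.25, adjusted p = 0.204) was not called, and became -0.71 with an adjusted p of 0.0362 without I/R+Rk2 replicate 1. The difference between the changes of Slc7a6 and Slc7a7 was not tested. Slc7a6 and Slc7a8 had means of 0.591 and 0.654 FPKM over the 6 livers, below the 1 FPKM that the filtered FPKM fits required. The unfiltered FPKM fit called both lower, but at -0.58 and -0.69, short of 2-fold. Slc7a6os, the opposite-strand neighbour of Slc7a6 at a gap of 2010 bases, had a log2 fold change of -0.11 (adjusted p = 0.623).

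The cationic amino acid transporters work without a heavy chain. Slc7a1 (CAT1), the widely expressed arginine and lysine carrier, was counted at 11.1, 19.2 and 20.4 CPM in I/R and at 9.62, 4.97 and 3.56 CPM in I/R+Rk2. Replicate 1 of each group lay nearest to the other group without crossing it, and the fall was 2.78-fold (log2 fold change -1.47, SE 0.38, adjusted p = 0.0191). That call was lost on leaving out I/R replicate 2 (adjusted p = 0.055), I/R replicate 3 (0.0633) or I/R+Rk2 replicate 2 (0.0705). Slc7a2 (CAT2), the main cationic amino acid carrier of hepatocytes, had the highest FPKM of the SLC7 family. Its counts were 346, 342 and 359.7 CPM in I/R and 111, 290.1 and 317 CPM in I/R+Rk2. All treated livers lay below all controls, but most of the fall sat in I/R+Rk2 replicate 1. Its log2 fold change of -0.54 (SE 0.35, adjusted p = 0.237) became -0.21 without that liver, uncalled in both cases. Slc7a4, whose substrate is not settled, stayed near 1 CPM with 0.7299, 0.546 and 0.439 CPM against 1.18, 1.15 and 0.614 CPM (log2 fold change 0.82, SE 0.37, adjusted p = 0.113). The remaining SLC7 members, Slc7a3 and Slc7a15, had at most 2 and 4 counts in any liver.

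**Figure D2:**
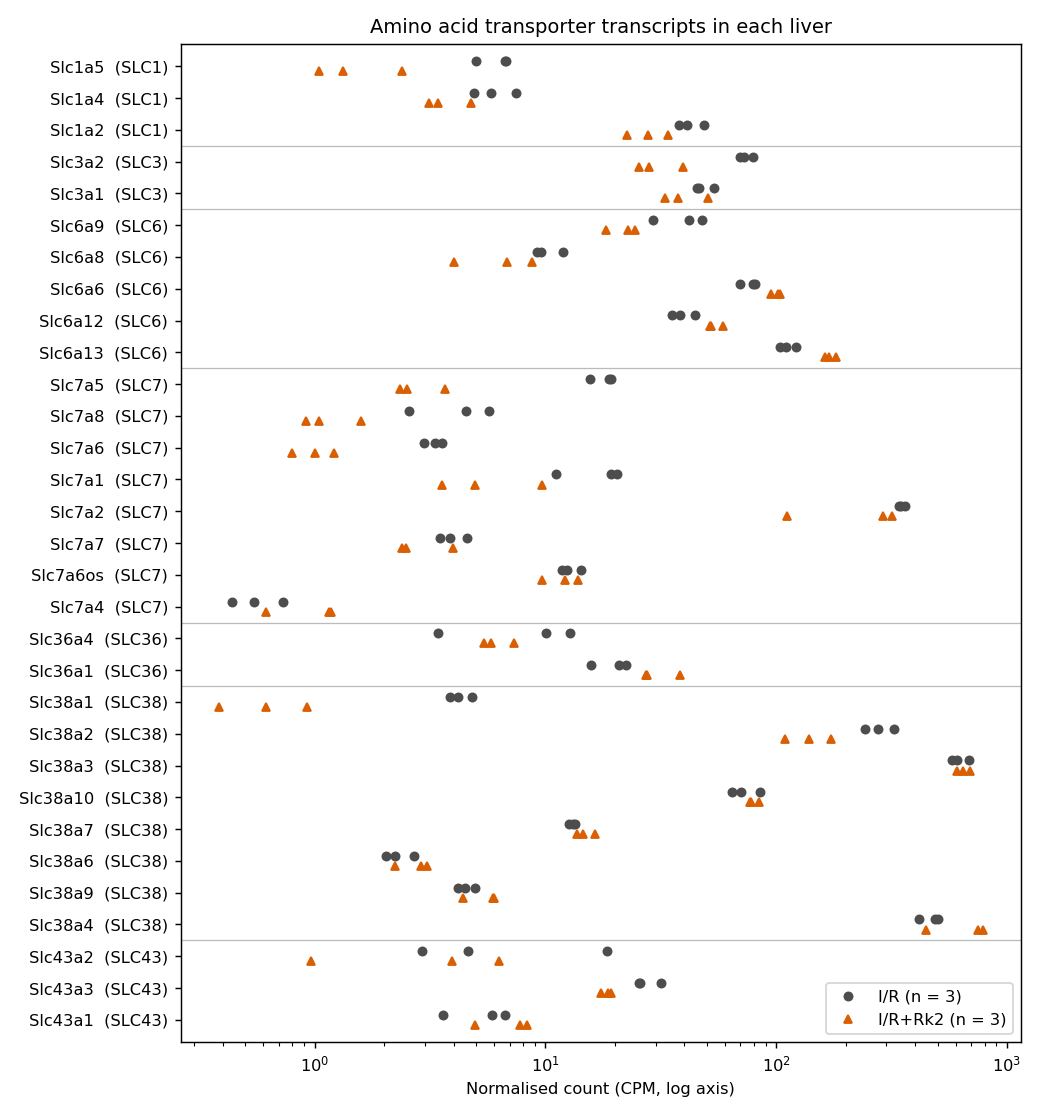
Normalised count (CPM, log axis) of the 31 tested members in each liver, grouped by family, with circles for I/R (n = 3) and triangles for I/R+Rk2 (n = 3). Slc7a5 and Slc38a1 show wide gaps between circles and triangles, Slc6a13 shows triangles above circles, and Slc38a3 at the right shows both groups mixed between 578 and 692 CPM.

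All 3 tested members of SLC1 were lower. Slc1a5 (ASCT2; chromosome 7, 16781340 to 16798274) exchanges glutamine for other neutral amino acids and is prominent in dividing cells. It stood at 6.73, 6.71 and 5.02 CPM in I/R and at 2.396, 1.33 and 1.04 CPM in I/R+Rk2. With the lowest control more than 2-fold above the highest treated liver, the fall was 3.82-fold (log2 fold change -1.93, SE 0.31, adjusted p = 0.00329). Slc1a4 (ASCT1), its paralog for alanine, serine, cysteine and threonine, was at 4.901, 5.81 and 7.45 CPM against 4.75, 3.43 and 3.13 CPM. Here I/R replicate 1 and I/R+Rk2 replicate 1 nearly met, and the fall (log2 fold change -0.68, SE 0.23, adjusted p = 0.0472) lay close to the threshold. It was not called with RLE scaling (adjusted p = 0.0521), with upper-quartile scaling (0.0612) or without a filter on low counts (0.054), nor without I/R replicate 2 (0.0893), I/R replicate 3 (0.16), I/R+Rk2 replicate 2 (0.14) or I/R+Rk2 replicate 3 (0.119). Slc1a2 (GLT-1) takes up glutamate and in the liver marks hepatocytes around the central vein, where glutamine is made. It had the highest FPKM of SLC1, with 37.9, 48.8 and 40.9 CPM in I/R and 22.5, 33.9 and 27.9 CPM in I/R+Rk2. The groups were separate by a small gap, and the fall (log2 fold change -0.60, SE 0.17, adjusted p = 0.025) was lost without I/R replicate 2 (0.0788), I/R replicate 3 (0.0549) or I/R+Rk2 replicate 3 (0.0659). The glutamate carriers Slc1a1 and Slc1a3 had at most 3 and 2 counts.

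The SLC38 family, the sodium-coupled neutral amino acid transporters, held both the largest fall and the most abundant member. Slc38a1 (SNAT1), a glutamine and alanine carrier of system A, fell 6.77-fold (log2 fold change -2.76, SE 0.33, adjusted p = 0.00113). It counted 3.86, 4.800 and 4.19 CPM in I/R and 0.925, 0.385 and 0.614 CPM in I/R+Rk2, far apart but low in both. Slc38a2 (SNAT2), the system A carrier that cells raise when amino acids are short, was at 243, 323 and 275 CPM against 109, 139 and 172 CPM. Every treated liver lay below every control, and the log2 fold change of -0.998 (SE 0.18, adjusted p = 0.00504) sat on the 2-fold line, just short of it here and past it in 10 of 16 alternatives; the fall was called in all 16. Slc38a1 and Slc38a2 are neighbours on chromosome 15 with a gap of 44478 bases, and the third system A gene, Slc38a4, follows 295089 bases on.

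Slc38a4 (SNAT4), the system A carrier typical of the liver, did not follow its neighbours. Its values in every liver, like those of Slc3a1, Slc6a8, Slc7a4, Slc7a7 and Slc43a1, are given outside the rule and were chosen after they were seen. It stood at 416, 488 and 501 CPM in I/R and at 448, 783 and 746 CPM in I/R+Rk2, the first treated liver lying among the controls. The log2 fold change of 0.49 (SE 0.21, adjusted p = 0.0956) was not called, while leaving that first liver out gave 0.70 with an adjusted p of 0.0054, and DESeq2 gave an adjusted p of 0.0474. Slc38a3 (SNAT3; chromosome 9, 107650634 to 107669530), the system N carrier by which hepatocytes take up or release glutamine, had the highest level of all 42 members, 264 ± 53.8 FPKM in I/R and 233 ± 18.03 FPKM in I/R+Rk2 (SD, n = 3). Its normalised counts of 681, 609 and 578 CPM in I/R and 642, 692 and 607 CPM in I/R+Rk2 were mixed between the groups. With a log2 fold change of 0.06 (SE 0.10, adjusted p = 0.681), it stood at 0.06 relative to the median of all genes with library size alone and at -0.04 with log2(FPKM + 1). The lysosomal arginine sensor Slc38a9 (0.27, adjusted p = 0.255), the lysosomal glutamine exporter Slc38a7 (0.19, 0.201), Slc38a6 (0.23, 0.432) and Slc38a10 (0.12, 0.433) had small uncalled log2 fold changes. Slc38a7 was the only one of these 4 whose groups did not overlap, from 12.6 to 13.4 CPM against 13.7 to 16.4 CPM. Slc38a5, a system N carrier of other tissues, had at most 3 counts.

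**Figure D3:**
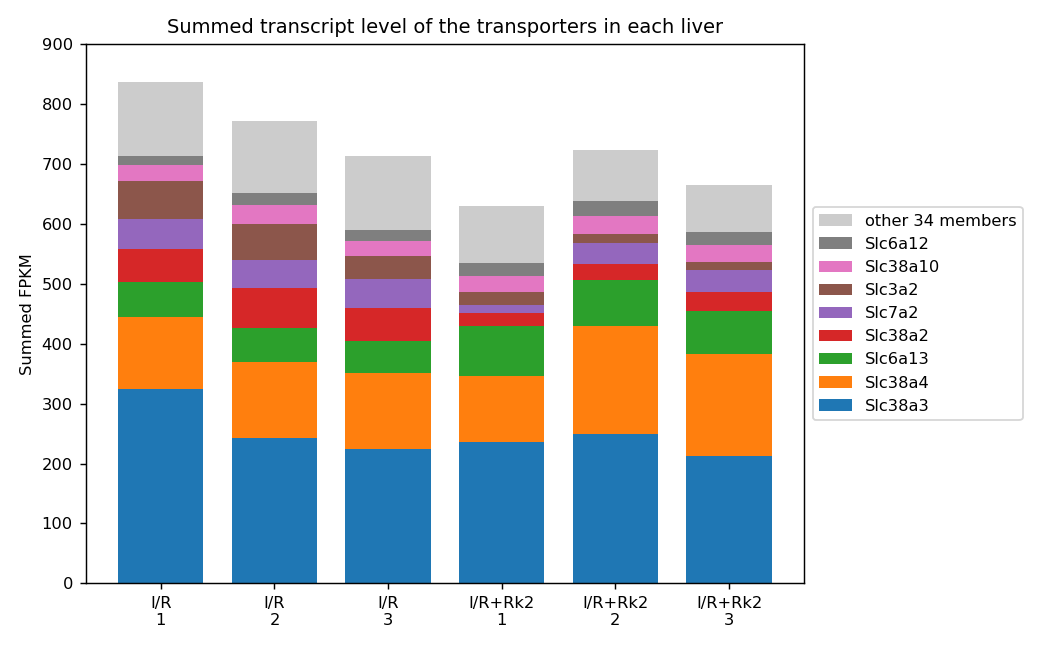
Summed FPKM of all 42 members in each liver, with the 8 most abundant members as coloured segments of a stacked bar and the rest in light grey. The totals run from 713 to 836 in I/R and from 630 to 723 in I/R+Rk2, Slc38a3 and Slc38a4 fill the lower part of every bar, and the Slc3a2 and Slc38a2 segments are thinner in I/R+Rk2 than in I/R while Slc6a13 is thicker.

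Per length, the carrier transcripts were dominated by few genes. The summed level of the members was 836, 771 and 713 FPKM in I/R and 630, 723 and 664 FPKM in I/R+Rk2, and the groups overlapped. Slc38a3 alone held 31.4% to 38.9% of it in I/R and 32.1% to 37.5% in I/R+Rk2. Slc3a2 held 5.38% to 7.86% of the sum in I/R and 2.01% to 3.36% in I/R+Rk2, without overlap. The share of Slc38a2 went from 6.71%-8.68% to 3.44%-4.84%, also without overlap, and that of Slc6a13 from 6.86%-7.46% to 10.8%-13.3% in the other direction. Members took 0.241% to 0.265% of all counts in I/R and 0.195% to 0.243% in I/R+Rk2. Most of the members that fell past 2-fold were thus minor transcripts of whole liver, Slc3a2 being the exception among the leading 8.

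The SLC6 family gave 3 of the 4 rises. Slc6a13, a GABA and taurine carrier abundant in hepatocytes, had the highest FPKM of SLC6 and stood at 104, 122 and 111 CPM in I/R and at 182, 169 and 163 CPM in I/R+Rk2. The treated livers lay clearly above the controls (log2 fold change 0.61, SE 0.09, adjusted p = 0.00257), and this rise was called in all 16 alternatives. Slc6a12 (BGT1), the betaine and GABA carrier that guards cells against osmotic stress, lies 5342 bases from Slc6a13 on chromosome 6. Its counts were 35.3, 44.5 and 38.2 CPM against 51.5, 59.1 and 52.1 CPM (log2 fold change 0.46, SE 0.11, adjusted p = 0.015). Slc6a6 (TauT), the taurine carrier, was at 69.6, 81.1 and 79.4 CPM against 95.03, 104 and 102 CPM (log2 fold change 0.39, SE 0.09, adjusted p = 0.0131). Neither gene overlapped between groups, yet both calls were lost with library size alone (0.31, adjusted p = 0.067, and 0.23, adjusted p = 0.0786) and in the FPKM fits; that of Slc6a12 was lost also without I/R replicate 3 (0.058) or I/R+Rk2 replicate 2 (0.057).

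Slc6a9 (GlyT1), the glycine carrier, went the other way within the same family. It stood at 29.4, 47.6 and 41.9 CPM in I/R and at 22.8, 24.5 and 18.2 CPM in I/R+Rk2. The controls were spread but all higher (log2 fold change -0.86, SE 0.19, adjusted p = 0.0114). Ccdc24 on the opposite strand shares 27.8% of the exon bases of Slc6a9. Slc6a8, the creatine carrier, was lower in every treated liver, at 11.9, 9.21 and 9.61 CPM against 8.74, 4.03 and 6.82 CPM, without a call (log2 fold change -0.66, SE 0.28, adjusted p = 0.0909). It was called with I/R+Rk2 replicate 1 left out (-0.95, adjusted p = 0.0262). Of the 5 untested members of this family, Slc6a16 had up to 18 counts, the serotonin carrier Slc6a4 up to 13, and Slc6a17, Slc6a19 and Slc6a20b up to 3 each.

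The proton-coupled carriers of SLC36 had 2 tested members. Slc36a1 (PAT1), which moves glycine, alanine and proline out of lysosomes, was at 15.7, 20.8 and 22.4 CPM in I/R and at 38.2, 27.6 and 27.3 CPM in I/R+Rk2. The groups did not overlap and the rise was called (log2 fold change 0.66, SE 0.18, adjusted p = 0.0247), but not with library size alone (0.51, adjusted p = 0.0534), in the FPKM fits (adjusted p from 0.341 to 0.416), or without I/R replicate 1 (0.0653), I/R replicate 2 (0.0532) or I/R+Rk2 replicate 1 (0.0573). Slc36a4, a carrier of proline and tryptophan, had 12.8, 10.03 and 3.43 CPM against 7.31, 5.42 and 5.83 CPM. One control lay below all treated livers and the other two above them (log2 fold change -0.50, SE 0.43, adjusted p = 0.379). The value ran from -0.11 with I/R replicate 1 left out to -0.88, with a call (adjusted p = 0.0214), with I/R replicate 3 left out. In the FPKM table, its I/R livers were all higher, at 2.095, 1.47 and 1.97 FPKM against 1.02, 0.733 and 0.765 FPKM, and limma called it (adjusted p from 0.011 to 0.0175). Slc36a2 had at most 4 counts.

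SLC43 holds facilitative carriers that need no ion. Slc43a3, which carries purine bases, had the highest FPKM of the family and was at 25.3, 31.6 and 25.8 CPM in I/R and at 18.7, 19.2 and 17.5 CPM in I/R+Rk2. All treated livers lay below the controls (log2 fold change -0.58, SE 0.12, adjusted p = 0.00739), in all 16 alternatives with a call. Slc43a1 (LAT3), a leucine and phenylalanine carrier known from liver, overlapped between groups at 3.597, 6.71 and 5.900 CPM against 8.32, 7.73 and 4.97 CPM (log2 fold change 0.38, SE 0.28, adjusted p = 0.305). Slc43a2 (LAT4), its paralog, depended on the table. As counts, it stood at 18.4, 2.93 and 4.62 CPM in I/R and at 0.967, 6.28 and 3.93 CPM in I/R+Rk2, with overlap and no call (log2 fold change -1.18, SE 0.82, adjusted p = 0.275). As FPKM it was at 5.21, 2.71 and 4.04 against 0.387, 0.777 and 0.545, without overlap, and limma on log2(FPKM + 1) gave -1.64 (adjusted p = 0.000649). The 2 tables therefore disagree on this gene.

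Other genes that respond to or use amino acids were counted beside the carriers, without a test of any list. Of 24 tested ATF4 and amino acid response genes outside the 7 families, 14 were lower (58.3%) and 3 higher (12.5%). Among all genes tested, lower calls took 23.7% and higher calls 20.3%. The median log2 fold change of the list was -0.58. Asns, the asparagine synthetase, was at 12.6, 10.8 and 13.7 CPM in I/R and at 4.12, 2.75 and 2.76 CPM in I/R+Rk2 (log2 fold change -1.94, SE 0.20, adjusted p = 0.000699). Sesn2, a leucine sensor induced by ATF4 that restrains mTORC1, fell by 1.28 on the log2 scale (adjusted p = 0.000753) and Aldh18a1, the first enzyme of proline synthesis, fell by 2.21 (adjusted p = 0.00137). The transcript of Atf4 itself, outside the naming rule and chosen after its values were seen, was at 128.8, 137 and 135 CPM against 127, 115 and 85.5 CPM (log2 fold change -0.29, SE 0.14, adjusted p = 0.139). Cytosolic aminoacyl-tRNA synthetases, which charge tRNAs and several of which depend on ATF4, gave 9 lower (45.0%) and 1 higher (5.0%) of 20. The falls were led by Rars (-0.59, adjusted p = 0.00491), Iars (-0.64, 0.00492) and Yars (-0.60, 0.00581).

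The genes that sense amino acids upstream of mTORC1 gave 8 higher and 5 lower of 26 tested, so that 13 were called, beside a share of 43.9% among all genes, and the balance turned to 4 higher and 7 lower with library size alone. The lowest log2 fold change of this list, -1.28, is the value given above for the leucine sensor Sesn2, so the lists may share that gene. Only 1 call in the list passed 2-fold, and it was lower. Lamtor4, a subunit of the lysosomal scaffold, was higher (0.66, adjusted p = 0.00142) and Seh1l, of the GATOR complex, lower (-0.63, 0.00157). These counts fell to 4 higher and 2 lower without I/R replicate 1, to 5 higher and 3 lower without I/R replicate 2 or 3, to 5 higher without I/R+Rk2 replicate 1 or 2, and to 2 lower without I/R+Rk2 replicate 3. Of 15 liver enzymes of glutamine and ammonia handling, 8 were higher (53.3%, against 20.3% of all genes) and 1 was lower (6.67%, against 23.7%). The lower call passed 2-fold and no higher call did, and log2 fold changes in the list ran from -1.71 to 0.78. The higher ones included Otc of the urea cycle (0.73, adjusted p = 0.00712) and the glutamate dehydrogenase Glud1 (0.44, 0.00882). The 8 rises fell to 3 without I/R replicate 1, I/R replicate 3 or I/R+Rk2 replicate 2, and to 4 without I/R+Rk2 replicate 3 or with library size alone.

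Carriers outside the 7 families gave 4 higher and 2 lower of 15 tested, so that 40.0% were called, beside 43.9% of all genes. Slc25a13, the mitochondrial aspartate/glutamate carrier of the urea cycle, rose (0.80, SE 0.11, adjusted p = 0.00193), whereas Slc15a3, a peptide and histidine carrier of lysosomes in myeloid cells, fell (-2.24, SE 0.36, 0.0031). Without I/R replicate 3, 2 of these were higher. Of the 3 tested partner proteins of amino acid carriers, Cd44 was lower at 66.9, 28.7 and 59.6 CPM against 13.02, 7.701 and 8.66 CPM (log2 fold change -2.40, adjusted p = 0.00224), and Anpep was higher (0.49, adjusted p = 0.0132), a call that was lost in the FPKM fits and with library size alone.

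**Figure D4:**
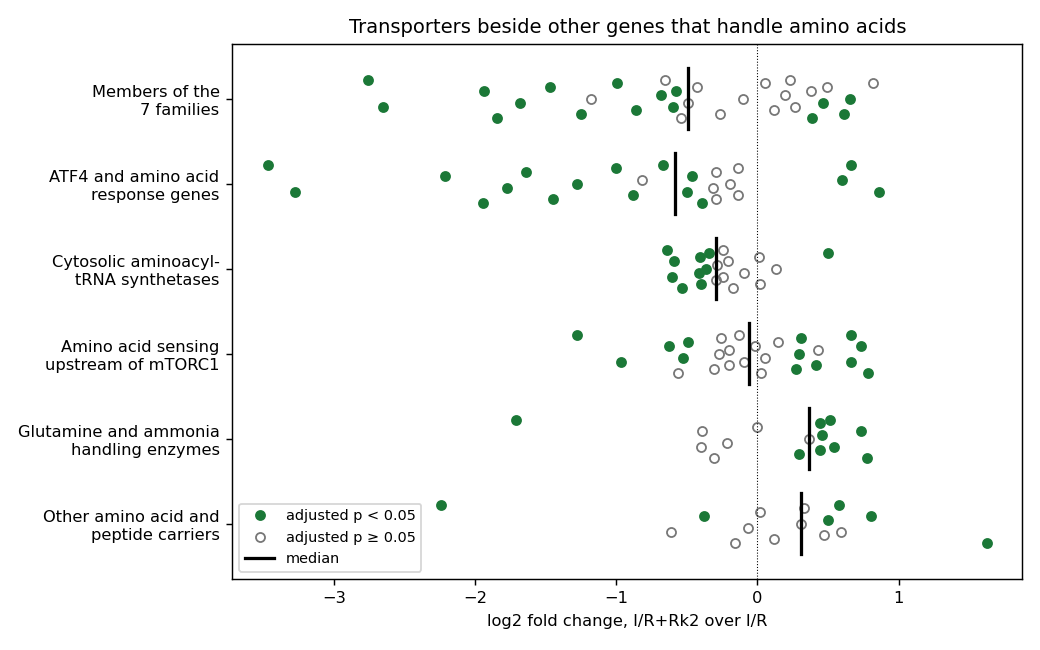
Log2 fold change (I/R+Rk2 over I/R) of every tested gene in the 7 carrier families and in 5 lists of other genes that handle or sense amino acids; filled circles are calls at an adjusted p below 0.05, open circles are not called, and the black bar is the list's median. The medians are -0.50 for the carriers, -0.58 for ATF4 response genes, -0.29 for the synthetases, -0.06 for the sensing genes, 0.37 for glutamine and ammonia enzymes and 0.31 for other carriers.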

How the data were processed

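Bulk RNA sequencing of 6 mouse livers, 3 per group as labelled, was used. The labels name build mm10, FastQC 0.11.5, HISAT2 2.2.1 and StringTie 1.3.3; the annotation and strand setting are not given in the sources used here. The authors deposited whole-number counts per gene and, in a second table, FPKM. From these, differential expression was tested with edgeR 4.0.16 under R 4.3.3 (filterByExpr, TMM, quasi-likelihood F test, no covariates) on all genes, with Benjamini-Hochberg adjustment over 12411 genes. SE is the absolute log2 fold change over the square root of F. Alternatives (16) were other scalings, other filters, DESeq2 1.42.0, limma 3.58.1 on log2(FPKM + 1) or log2(FPKM + 0.1) at a mean of at least 1 FPKM or unfiltered, a replicate block, and each liver left out in turn. The labels do not say that livers of the same replicate number were paired. Deviations from the group mean correlated at -0.0313, 0.0477 and -0.0243 between same-numbered livers. So few values show no sign of pairing but cannot exclude it. Replicates differed by more than sampling noise (chi-square per degree of freedom from 31.4 to 74.8). The fits were tested on simulated data.

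The members, gene lists and rules were chosen with earlier results of these data known. Values in every liver were to be given for members called past 2-fold, called with a mean of at least 1 FPKM, highest in FPKM within their family, or changing their 2-fold call in an alternative, and at most the 3 genes of smallest p were to be named from another list. A few such genes of the other lists are not reported here but were kept in the fits and counts. Gene positions are from GENCODE M21 (GRCm38, the same assembly as mm10), where all 42 names matched once. Of the members, 12 share exon bases with a gene on the opposite strand. In the FPKM table, 21 further names matching the pattern were listed at 0 in all 6 livers.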

Additional observations from a re-analysis of the deposited data

How the results depend on the processing

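Of 484 member values over the 16 alternatives, 430 kept their direction and their side of the threshold, 33 lost a call, 13 gained one and 8 turned sign. The number of higher members was 1 with library size alone and in each of the 3 FPKM fits, against 4, and the remaining one was Slc6a13; the all-gene median then moved to -0.17 with library size and to -0.12 in the filtered log2(FPKM + 1) fit, and relative to that median the 4 members stayed above 0 with library size (0.40 to 0.68). The median of the tested members was -0.68 with library size alone, -0.63 with log2(FPKM + 0.1) and -0.0525 with unfiltered FPKM, which takes in the members at or near 0; leaving out 1 liver at a time moved it from -0.51 (I/R replicate 3 left out) to -0.30 (I/R replicate 1 left out), by way of -0.39 (I/R+Rk2 replicate 2 left out). Leaving out 1 liver gave 3 to 4 higher and 9 to 15 lower members, and 6 to 9 lower past 2-fold. Signs turned only for members without a call, and with library size alone none turned relative to the all-gene median: Slc38a3 (-0.11 with library size, -0.16, -0.17 and -0.16 in the FPKM fits), Slc38a10 (-0.0341 with library size), Slc38a6 (-0.0780 in unfiltered FPKM), Slc43a2 (0.00191 without I/R replicate 1, in a range from -1.85) and Slc7a6os (0.0195 without I/R+Rk2 replicate 1, in a range from -0.24). Where no construction is named, the cause was not tested.

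With the replicate number as a block, the calls were 3 higher and 11 lower and the median was -0.45. Slc7a1 (adjusted p = 0.0552), Slc1a4 (0.107) and Slc36a1 (0.0706) lost their calls and Slc6a8 (0.0425) gained a call. By the labels, however, the livers of a block share only a number. Depth limits the 11 untested members, which had at most 18 counts in a liver, and p-values with 3 livers a group cover only the spread between these livers.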

Other observations

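The count and FPKM tables were set against each other gene by gene: a count divided by its FPKM and by the library's total gives the transcript length that the pair of values implies. Among the 31 tested members this implied length differed by less than 2-fold between livers for 28, with a median ratio of highest to lowest of 1.20. For Slc1a5 the ratio was 2.12, for Slc36a4 3.99 and for Slc43a2 6.95. In Slc43a2 it was 4028, 1103 and 1159 bases in I/R and 2436, 7662 and 6590 bases in I/R+Rk2, and in Slc36a4 it was 1758 bases in I/R replicate 3 against 6963 to 7012 in the other 5 livers. From all 6 livers, Slc36a4 and Slc43a2 were called lower by FPKM and not by counts, while Slc1a5 was lower by both. Without I/R replicate 3, the count fit called Slc36a4 lower too (-0.88).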
